A study of Drosophila melanogaster with 3 samples.

Results

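The genes described here encode proteins that organise the chromatin fibre of Drosophila melanogaster into domains: su(Hw), CTCF, BEAF-32, Trl, Ibf1, Ibf2 and Dref, whose products bind DNA, and Cp190, mod(mdg4) and Chro, whose products act as their cofactors. They were taken by name from the RefSeq annotation of the dm6 assembly and are 10 of its 13944 protein-coding genes on the major chromosome arms and Y. Chromatin immunoprecipitation with sequencing (ChIP-seq) had been done in 3 biological replicates of 1 group on a zinc finger protein, CG14710, from whole embryos of both sexes aged 0 to 14 hours. The transgenic flies made CG14710 as a fusion with green fluorescent protein at its C-terminal end, and the antibody recognised that tag. An untagged line was not analysed here, so enrichment at promoters that does not depend on CG14710 was not tested. The data were 5 lists of peaks, 1 for each replicate and 1 pooled list, of 30000 peaks each, and a list of the 9194 peaks that passed the irreproducible discovery rate (IDR), a filter for peaks that recur between replicates. A summit is the position within a peak that the authors' caller marked as highest, and the signal value is the caller's own measure of enrichment, on a scale that is not stated. Values are therefore compared by rank within a list, rank 1 being the strongest. The lists hold no read counts, so the depth behind a peak is unknown.

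Insulators are DNA elements that keep enhancers from acting on the wrong promoter and that separate chromatin domains. In Drosophila, DNA-binding insulator proteins each recognise their own sequence and bring in shared cofactors, above all CP190 and the Mod(mdg4) proteins, and many of their sites lie beside the promoters of widely expressed genes. The question asked of the lists was whether the tagged protein had peaks at the genes that encode this machinery.

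All 10 genes carried an IDR summit no further than 500 bp from an annotated transcription start site (TSS), against 42.6% of protein-coding genes. In the 9194 strongest peaks of replicates 1, 2 and 3 alone, the count was 10 in each, while 41.9%, 43.3% and 41% of protein-coding genes had such a summit. In the pooled list it was again 10, against 55.1%. A start site of another gene within 1000 bp is common among them: 9 of the 10 have one, and such genes had a promoter summit in 62.4% of cases, against 24.3% for genes without. The tenth gene, mod(mdg4), has none and had a promoter summit too. The 10 genes have 19 annotated TSS, of which 16 had an IDR summit in reach, against 38.8% of all protein-coding TSS. The 3 without were 2 of the 4 starts of Trl, where the nearest summits lay 598 and 525 bp away, and the downstream start of Cp190, 570 bp from the nearest summit. There were 19 distinct IDR summits at these genes, 13 at promoters and 6 within gene bodies. Each had a summit within 150 bp in the full list of all 3 replicates, at ranks down to 11667. The IDR filter keeps peaks that recur, so this is largely given by the selection, and the share over all IDR summits was not counted.

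Taking the strongest promoter summit of each gene, the IDR signal ran from 40727 at Chro to 508 at Trl. The median signal over the 10 genes was 708, against 745 over the 5941 protein-coding genes with a promoter summit, and 4 of the 10 lay above that median. Chro alone was among the 100 strongest IDR peaks, which reach 1.05% of protein-coding genes, and Chro and Cp190 were among the 500 strongest, which reach 3.84%. In the 50% of IDR peaks with the higher signal, 8 of the 10 genes had a promoter summit, against 29% of protein-coding genes; Trl and mod(mdg4) did not. The count fell to 5, 7 and 8 of the 10 in the 4597 strongest peaks of replicates 1, 2 and 3, against 27.7%, 30.2% and 27.8%. When IDR peaks were kept only if they also lay among the strongest of the remaining replicates, it was 8 without replicate 1 (against 36.5%), 9 without replicate 2 (against 36%) and 9 without replicate 3 (against 38.4%), the losses being su(Hw) and Trl. A window of 1000 bp gave 10 genes, against 46.1%, and overlap of the peak interval in place of the summit gave 10, against 44.2%. The median distance between summit and TSS was 105 bp for the 10 genes and 114 bp for all genes with a promoter summit.

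**Figure D1:**
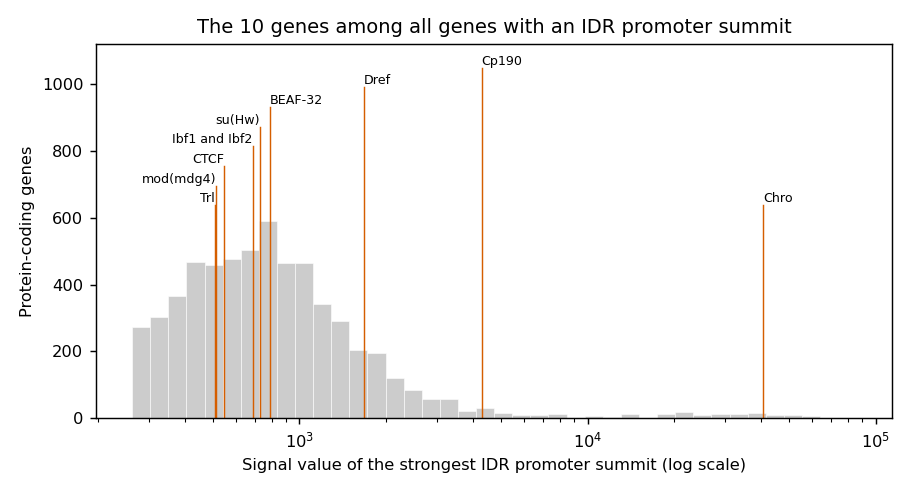
Signal value of the strongest IDR promoter summit (log scale) of the 5941 protein-coding genes that have one, as a histogram of genes, with a vertical line for each of the 10 genes; line heights differ only to separate the names. Chro, at 40727, stands in the far right of the distribution and Cp190, at 4290, in its upper tail, while most of the other genes lie near its peak.

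The sequences under several of these summits are shown because they hold, or lack, short sequences that DREF, BEAF-32 or ZIPIC recognise. They were read from the RefSeq dm6 genome, run 5′ to 3′ on the strand of the gene, and are limited to stretches outside untranslated regions apart from a few bases at the edges. Capitals mark matches to TATCGATA, the element bound by DREF, to CGATA, the core bound by BEAF-32 and contained in the DREF element, or to CAGGGCTG, the sequence bound by ZIPIC, on either strand. The first 4 are promoters with a match near the summit, to the DREF element in CTCF, the shared region of Ibf1 and Ibf2, and mod(mdg4) and to CGATA alone in Dref (CTCF, chr3L:7356706-7356792, minus strand; Ibf1, chr3R:9258494-9258642, plus strand; mod(mdg4), chr3R:21377401-21377551, minus strand; Dref, chr2L:9967222-9967312, minus strand). The element shown for Ibf1 and Ibf2 is the copy of the Ibf2 promoter, 62.5 bp from the summit. The copy of the Ibf1 promoter, 142.5 bp from its nearest summit, is not shown. Cp190 (chr3R:15275285-15275435, minus strand), the intron of Trl (chr3L:14759454-14759604, minus strand) and an internal site of mod(mdg4) (chr3R:21373568-21373678, minus strand) follow, the first 2 of them without a match.
CTCF promoter: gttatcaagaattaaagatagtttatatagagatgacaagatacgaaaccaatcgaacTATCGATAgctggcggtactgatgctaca
Ibf1 and Ibf2 promoter: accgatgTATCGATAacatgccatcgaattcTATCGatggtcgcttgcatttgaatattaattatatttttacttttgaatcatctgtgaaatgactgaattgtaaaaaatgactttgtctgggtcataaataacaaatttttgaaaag
mod(mdg4) promoter: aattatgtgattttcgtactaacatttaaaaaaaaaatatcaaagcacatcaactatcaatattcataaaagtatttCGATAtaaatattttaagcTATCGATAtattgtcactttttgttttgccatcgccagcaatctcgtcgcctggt
Dref promoter: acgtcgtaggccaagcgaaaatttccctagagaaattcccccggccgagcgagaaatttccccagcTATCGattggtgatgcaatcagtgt
Cp190 promoter: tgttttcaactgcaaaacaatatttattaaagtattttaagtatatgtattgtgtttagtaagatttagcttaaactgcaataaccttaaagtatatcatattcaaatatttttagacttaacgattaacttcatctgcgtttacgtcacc
Trl intron: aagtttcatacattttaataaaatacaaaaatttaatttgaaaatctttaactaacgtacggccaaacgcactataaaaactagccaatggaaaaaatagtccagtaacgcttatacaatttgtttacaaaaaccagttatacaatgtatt
mod(mdg4) internal site: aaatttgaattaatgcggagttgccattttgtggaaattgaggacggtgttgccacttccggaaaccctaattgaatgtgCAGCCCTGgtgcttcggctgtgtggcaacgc

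Among the DNA-binding factors, Dref had the strongest promoter peak. DREF activates genes of DNA replication and growth through the element TATCGATA and competes with BEAF-32 for overlapping sites. Its promoter summit ranked 806, 418 and 949 in replicates 1, 2 and 3, with signals of 566, 510 and 626, and ranked 732 in the IDR list with a signal of 1669. The mean rank was 724 ± 275 (SD, n = 3), which is the 97.6 ± 0.916 percentile of the replicate lists. In all 3 replicates Dref stood above the 7 genes that follow it in the order, and replicate 2 placed it highest. The IDR summit (2L, 9967237) lay 8 bp upstream of the TSS, with its replicate summits spread over 77 bp, and 76 bp upstream of RpL13, a ribosomal protein gene on the other strand whose TSS is 84 bp from that of Dref.

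CTCF encodes the fly counterpart of the vertebrate insulator protein CTCF. Its summits ranked 4563, 3726 and 4888 in the replicates, with signals of 202, 168 and 207, a mean of 4392 ± 600 (SD, n = 3). The IDR summit (3L, 7356717; signal 547, rank 4582) lay 4 bp upstream of the single TSS, the closest of all 10 genes, and no other gene's TSS was within reach. The replicate summits straddled that start, 34 bp upstream of it in replicate 1 and 68 and 43 bp downstream in replicates 2 and 3.

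The su(Hw) protein, a zinc finger factor, binds the insulator of the gypsy retrotransposon and represses genes in the germ line. Its promoter summits ranked 5006, 3853 and 2256, with signals of 186, 165 and 377, so that replicate 3 stood highest and replicate 1 lowest (mean 3705 ± 1381, SD, n = 3). The IDR summit (3R, 14308874; signal 727, rank 3184) lay 285 bp upstream of su(Hw) and 215 bp upstream of Polr2I, a subunit gene of RNA polymerase II on the other strand, between 2 starts that are 500 bp apart. It was the one gene of the 10 with no IDR summit within 250 bp of its own TSS, a window in which 37.3% of protein-coding genes had one.

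Ibf1 and Ibf2 encode partner insulator factors that bind DNA together and recruit CP190, and the genes stand head to head on 3R with their starts 463 bp apart. Both IDR summits between them are shared. The stronger one (9258567; signal 688, rank 3429) lay 66 bp upstream of Ibf2 and 397 bp upstream of Ibf1, and ranked 4922, 5848 and 2455 in the replicates, with signals of 189, 116 and 355. The weaker one (9258785; signal 421, rank 6107) lay 179 bp upstream of Ibf1 and 284 bp upstream of Ibf2, and ranked 10947, 7005 and 4439. Replicate 3 was the highest at both summits, and the stronger summit ranked above the weaker one in each replicate. Their mean ranks were 4408 ± 1754 and 7464 ± 3278 (SD, n = 3), so the ranges over the replicates overlapped.

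Trl encodes GAGA factor, which binds GA repeats and keeps promoters and regulatory elements free of nucleosomes. It had 5 IDR summits along its span (3L, 14747929 to 14761049), more than any other of the 10 genes, and the strongest was not at a start site. That summit (14759529), in an intron 1520 bp from the nearest annotated start in both the RefSeq and the Ensembl annotation, ranked 152, 144 and 133 in the replicates, with signals of 1473, 1049 and 1877. These 3 ranks lay closer together than those of any promoter of the set but Chro. In the IDR list it ranked 133 with a signal of 4377, which was 8.61 times that of the strongest Trl promoter summit. Of the 3864 IDR summits over 500 bp from any TSS, 42% of the list, it had the 11th highest signal.

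The promoter summits of Trl were weak by comparison. The stronger one (14757104; signal 508, rank 4982) lay 232 bp downstream of the last start, in the 5′ untranslated region, and ranked 7159, 4726 and 3736 in the replicates. The other (14758304; signal 306, rank 8156) lay 342 bp upstream of a start that Trl shares with CG42507, and its ranks of 5095, 9082 and 11667 put it highest in replicate 1 and lowest in replicate 3. Replicate 1 thus had its strongest Trl promoter summit at a different place from the other replicates. With the strongest summit taken in each replicate, the mean rank was 4519 ± 703 (SD, n = 3). The remaining intronic summits, at 14756149 and 14760451, ranked 2772 and 4867 in the IDR list.

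**Figure D2:**
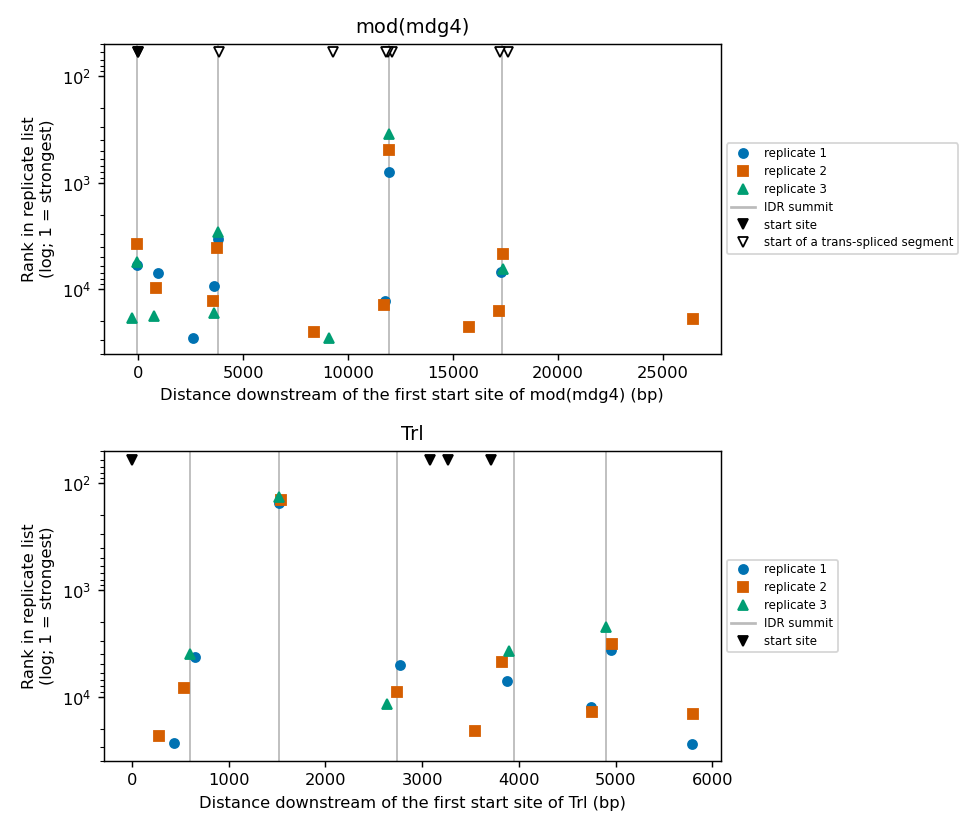
Rank of every summit in the 3 replicate lists (log scale, strongest at the top) against its distance downstream of the first start site of mod(mdg4), above, and Trl, below; grey lines mark IDR summits, filled triangles the start sites and open triangles the starts of trans-spliced segments. In Trl the 3 replicates coincide at the intronic summit, with ranks of 152, 144 and 133, between start sites, and in mod(mdg4) each internal IDR summit lies beside segment starts.

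The mod(mdg4) gene, a cofactor gene with a BTB domain at the shared N-terminus of its products, makes many isoforms, one of which joins su(Hw) at the gypsy insulator. Its isoforms differ at their C-termini, and several are made by trans-splicing, in which separately transcribed segments from either strand of the locus are joined to the common exons. Its promoter summit (3R, 21377476; signal 515, rank 4909), 75 bp upstream of the TSS and shared with no other gene, ranked 5899, 3776 and 5572 in the replicates, with signals of 162, 167 and 182. The mean, 5082 ± 1143 (SD, n = 3), was the weakest of the 10, though its replicates overlapped those of Trl.

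Inside mod(mdg4) there were 3 further IDR summits, and 2 of them had a higher IDR signal than the promoter. The strongest, at 21365470, 11929 bp downstream of the start, ranked 793, 493 and 353, with signals of 569, 479 and 1040, and 465 in the IDR list with a signal of 2075. In each replicate it ranked above the promoter summit. The summit at 21373603 (signal 724, rank 3207) ranked 3353, 4108 and 2870, above the promoter in replicates 1 and 3 but not in replicate 2. The summit at 21360060 (signal 420, rank 6121) ranked 6904, 4697 and 6431, below the promoter in every replicate.

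All 3 internal summits lay close to an annotated start of a trans-spliced segment, at 28 bp (21373603), 18 bp (21365470) and 116 bp (21360060). Windows of 500 bp around such starts cover 18.2% of the 26053 bases of the gene body. Of the 7 distinct starts, which serve 23 annotated segments, 6 had an IDR summit in reach, and the exception, at 21368129, had only a summit of rank 28287 in replicate 3. The starts cluster, so the 6 are served by 3 summits. In the pooled list 4 of 7 internal summits lay in such windows. Across the annotation, 9.85% of genes held a body summit of the IDR list over 500 bp from their own starts, and 32.7% of those spanning over 5000 bp; among the 10 genes it was Trl and mod(mdg4), which are 2 of the 3 that span over 5000 bp. The pooled list gave these same 2 genes, against 22.5% of protein-coding genes.

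Cp190 encodes the BTB and zinc finger protein that most Drosophila insulator proteins bring in as a cofactor. Its promoter summit ranked 161, 148 and 129 in replicates 1, 2 and 3, with signals of 1391, 1004 and 1918. The mean rank was 146 ± 16.1 and the percentile 99.5 ± 0.0536 (SD, n = 3), apart from Chro above it and Dref below it in every replicate. The IDR summit (3R, 15275360; signal 4290, rank 137) lay 119 bp upstream of Cp190 and 162 bp upstream of CG4338, a gene on the other strand whose TSS is 281 bp away.

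Chro encodes chromator, a chromodomain protein of open chromatin in polytene chromosome interbands and of the mitotic spindle. Its summit was the strongest of the set, with ranks of 12, 13 and 27 and signals of 15043, 12164 and 13106, a mean rank of 17.3 ± 8.39 (SD, n = 3). The replicate summits agreed to within 13 bp. The IDR summit (3L, 22879231; signal 40727, rank 16) lay 247 bp upstream of the first start of Chro. It lay 15 bp upstream of the nearest start of Ssl1, a gene on the other strand for a subunit of the general transcription factor TFIIH. Another start of Ssl1 is 105 bp from a start of Chro, and the summit lay downstream of that Ssl1 start. The summit cannot be given to either gene alone. A second summit in the same peak (22878140; signal 2251, rank 396) lay 44 bp downstream of the last Chro start, in the 5′ untranslated region, and within reach of no other gene. It ranked 245, 273 and 979, lowest in replicate 3. The peak that holds both summits is 2093 bp wide, at the 99.9 percentile of width in the IDR list.

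**Figure D3:**
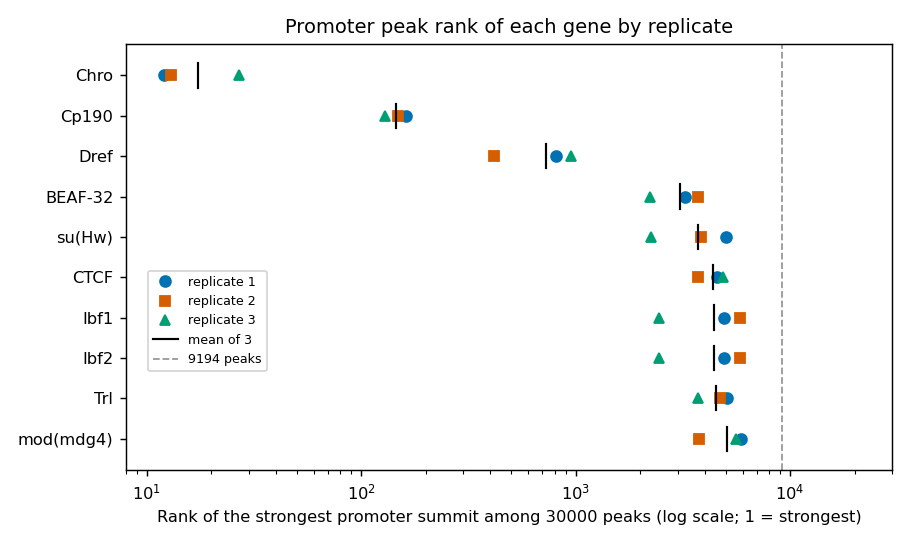
Rank of the strongest promoter summit of each gene among the 30000 peaks of replicates 1 to 3 (log scale), with the mean of the 3 as a bar; the dashed line marks rank 9194. Chro, Cp190 and Dref form separate steps at the left, with mean ranks of 17.3, 146 and 724, and the other 7 genes overlap between ranks 2219 and 5899.

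The remaining DNA-binding factor, BEAF-32, binds CGATA clusters at boundaries and near the promoters of widely expressed genes. Its upstream summit (2R, 14770378; signal 792, rank 2777) lay 91 bp upstream of the first TSS and ranked 3247, 3720 and 2219 in the replicates, with signals of 259, 168 and 380. Its mean rank of 3062 ± 767 (SD, n = 3) was the fourth of the 10. A second summit (14771282; signal 546, rank 4599), 19 bp upstream of the last TSS, ranked 4955, 4443 and 5192, below the first in every replicate. Both summits also lay near starts of the antisense RNA gene asRNA:CR42254, so they cannot be given to one of the overlapping genes.

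Ordered by mean percentile over the replicates, the genes ran Chro, Cp190, Dref, BEAF-32, su(Hw), CTCF, Ibf1 and Ibf2, Trl and mod(mdg4). The first 3 steps separated: the lowest replicate of Chro (99.9) lay above the highest of Cp190 (99.6), the lowest of Cp190 (99.5) above the highest of Dref (98.6) and the lowest of Dref (96.8) above the highest of BEAF-32 (92.6). In the other 6 of the 9 neighbouring pairs the ranges over the replicates overlapped. The order of Chro and Cp190 depended on the window. At 250 bp the mean percentile of Chro (98.9) was below that of Cp190 (99.5). Within each replicate, BEAF-32 still ranked above su(Hw), CTCF, Ibf1, Ibf2, Trl and mod(mdg4), by as little as 3720 against 3726 for CTCF in replicate 2. The cofactors did not stand together, with Chro and Cp190 first and mod(mdg4) last.

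**Figure D4:**
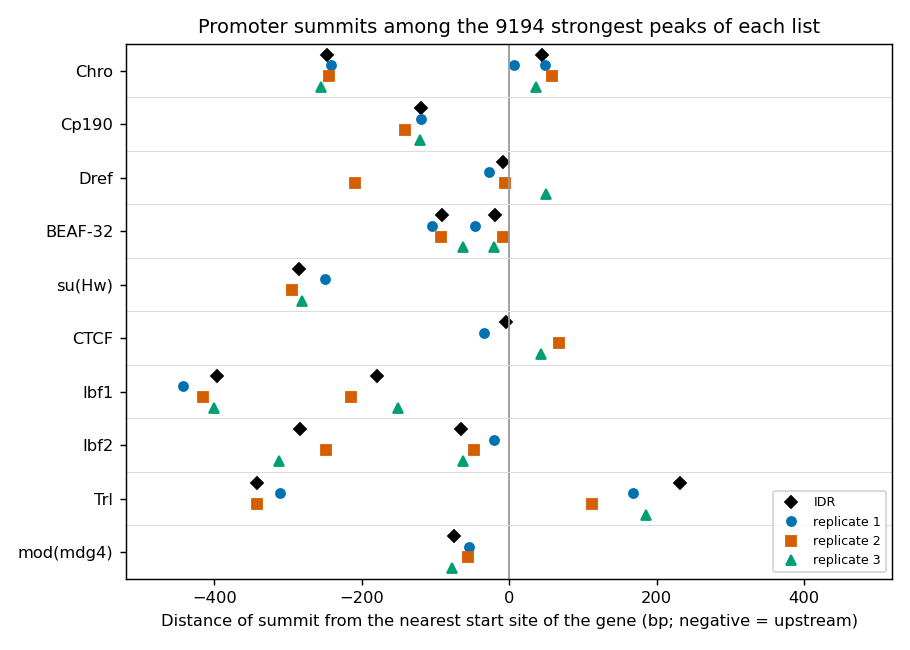
Distance of each promoter summit from the nearest TSS of the gene (bp, upstream negative) in the IDR list and among the 9194 strongest peaks of replicates 1 to 3. Cp190, mod(mdg4) and su(Hw) have 1 summit at nearly the same place in every list, upstream of the start, and the summits of CTCF fall on both sides of it.

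Shared promoters were frequent. For 8 of the 10 genes a promoter summit also lay within 500 bp of another gene's TSS, against 62.7% of the genes with a promoter summit, and only CTCF and mod(mdg4) had none that did. Counting protein-coding neighbours alone it was 7 against 59.9%, and with both windows at 250 bp it was 4 of 9 against 51.1%. In 6 genes, su(Hw), BEAF-32, Ibf1, Ibf2, Dref and Cp190, every promoter summit was shared. That left 4 of the 10 with a summit of their own, CTCF, Trl, mod(mdg4) and Chro. The same held for 2432 of the 5941 protein-coding genes with a promoter summit, or 17.4% of all protein-coding genes, so the 10 genes did not stand out here. The count of genes with a summit of their own was chosen after seeing the data.

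A set of 8 sequences known from insulator and core promoter proteins was searched in the promoters, from 250 bases before to 50 after each TSS on both strands. The DREF element TATCGATA was in the promoters of 6 of the 10 genes, CTCF, BEAF-32, Ibf1, Ibf2, Cp190 and mod(mdg4), against 19.5% of the genes with a promoter summit and 10.2% of all protein-coding genes. Each of the 6 promoters has its own copy of it. CGATA, which every DREF element contains, was in 8 of 10, against 68.1% of genes with a promoter summit. The M1BP sequence GGTCACACT and core promoter motif 6, GGTATTTT, were found at su(Hw) alone, the GAGA factor sequence GAGAGAG at Trl alone and the su(Hw) core TTGCATAC at Ibf1 alone. Among genes with a promoter summit these were present in 14.3%, 10.8%, 8.92% and 1.65%. Neither AGNNGGCGC, the CTCF sequence (4.44%), nor CAGGGCTG, the ZIPIC sequence (5.02%), was in any of the 10.

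Few of these matches lay at the summits themselves. Within 50 bp of the 13 promoter summits, TATCGATA was present at 2, CTCF (13.5 bp from the summit) and mod(mdg4) (24.5 bp), against 7.51% of the 5113 IDR summits at protein-coding promoters. At Ibf2 the element began 7 bp upstream of the TSS and ended on the first base of the gene, 62.5 bp from the summit, and at Cp190 and BEAF-32 it lay 118.5 and 115.5 bp away. CGATA lay within 50 bp of 4 of the 13, against 30.3%. The ZIPIC sequence lay 8.5 bp from the internal mod(mdg4) summit at 21373603, 1 of the 6 summits in gene bodies. It lay within 50 bp of 1.82% of the 5113 promoter summits. The strong summits of Cp190 and the Trl intron held none of the 8 sequences within 50 bp. The same was true of most summits at these genes, among them those of su(Hw), BEAF-32 and Chro.

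A second list of 28 genes covered other architectural proteins, including cohesin, condensin and further DNA-binding factors and cofactors. An IDR promoter summit was present at 21 of them (75%), against 42.6% of protein-coding genes. All 9 cofactor genes and all 5 condensin genes had one, as did 4 of 5 genes of cohesin or its loader. Among genes of DNA-binding factors it was 3 of 9, which for so few genes is not far from the 42.6%. The strongest were SA1, a cohesin subunit (signal 2295, rank 379), M1BP, the factor that binds core promoter motif 1 (2115, rank 447), Top2, topoisomerase II (1893, rank 560), pzg, whose product partners with chromator (1765, rank 662), and Cap-D3, a condensin II subunit (1617, rank 787). By IDR signal, each of these was weaker than Chro and Cp190 and, apart from Cap-D3, stronger than Dref. Their replicate ranks overlapped those of Dref, so they were not apart from it. In replicate 2 Dref, at rank 418, stood above SA1 (484), M1BP (472), Top2 (649), pzg (772) and Cap-D3 (549). In replicates 1 and 3 Dref, at ranks 806 and 949, stood below SA1 (371 and 375), M1BP (446 and 475) and Top2 (425 and 706). Cap-D3 ranked above Dref in replicate 1 (723) but not in replicate 3 (1207). For pzg it was the reverse (1499 in replicate 1 and 428 in replicate 3).

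The 7 genes without an IDR promoter summit were Elba1, Elba2 and Elba3, which encode the early embryonic boundary complex ELBA, insv, a relative of Elba1 and Elba2, the zinc finger genes ZIPIC and dwg, and the cohesin loader gene Nipped-B. In the pooled list a promoter summit was present at insv (rank 9332), dwg (rank 10224), ZIPIC (rank 18269) and Elba2 (rank 21815), and at none of the other 3. The dwg promoter had a summit in each replicate, at ranks 8240, 9916 and 15311, as did that of insv, at ranks 13433, 16219 and 6016. Nipped-B had a promoter summit in replicate 3 alone, at rank 7572, and ZIPIC in replicates 1 and 2, at ranks 10940 and 8443. Elba2 had a summit in replicate 2 alone, at rank 16219, the same rank as insv there. The genes are neighbours on 2L, insv ending at 2576997 and Elba2 beginning at 2577687, so this is probably a single summit in reach of both. Elba1 and Elba3 had none in any. A gene outside a list of 30000 peaks is only not among the strongest. The tagged gene CG14710 had an IDR summit 77 bp upstream of its start (3R, 11620013; signal 1804, rank 627), close to the level of Dref.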

How the data were processed

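The 5 lists were narrowPeak files. According to text files deposited beside them, the authors called peaks per replicate from dm6 alignments with 1 common control, and derived the IDR list from replicate and pooled peaks. Chromatin was sonicated to 200 to 800 bp, per the labels. Not given in the sources used here were the aligner, the caller, their versions and the IDR cutoff. The authors deposited signal values on an unstated scale. The q-value, deposited as −log10 and capped at a shared highest value, was not used. Summits were deposited as an offset from the interval start, and in 2 to 17 lines of a list the offset lay at or past the interval end. All 9194 IDR peaks are pooled peaks.

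Summits were set against RefSeq dm6 (17796 genes, 23623 TSS on the major arms and Y). A gene's value in a list is its strongest summit within 500 bp of any TSS, and a gene body is the span outside these windows. Percentile is the share of a 30000-peak list at or below a rank. Genes with several TSS have several windows, and shares over genes count any of them. The 10 genes, the second list and the motifs were chosen with earlier results of these data known, so counts are descriptions with no test. All 10 genes are named, with the 5 strongest and all unbound genes of the second list, neighbours sharing a summit and CG14710. SA was matched as SA1 and L(3)mbt as l(3)mbt. Alternatives were other windows, lists and peak numbers and each replicate left out. Counting only summits shared with no other gene was added after seeing the data. Procedures were tested on simulated data. Python 3.11.15 with numpy 2.4.6, scipy 1.17.1 and matplotlib 3.10.9 was used. SDs are over the 3 biological replicates, per the labels.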

Additional observations from a re-analysis of the deposited data

How the results depend on the processing

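All 10 genes kept a promoter summit at 1000 bp, by interval overlap and in the pooled list; it was 9 at 250 bp, without su(Hw), and 8 in the 50% of IDR peaks with the higher signal. Keeping only IDR peaks among the 9194 strongest of both remaining replicates gave 8 to 9 genes when leaving out each replicate in turn: without replicate 1 su(Hw) and Trl were lost, without replicate 2 Trl and without replicate 3 su(Hw). The su(Hw) summit lay 8 bp outside the interval of replicate 2 and that of Trl 26 bp outside that of replicate 3. With the 4597 strongest peaks, the counts were 5, 7 and 8 in replicates 1, 2 and 3, so replicate 1 fell furthest from 10. Genes sharing a summit with another gene numbered 4 of 9 at 250 bp in place of 8. Motif matches at summits, summed over 8 motifs, numbered 15 within 100 bp in place of 7 within 50 bp. A summit with TATCGATA counts under CGATA too. Over all IDR promoter summits the wider window raised CGATA from 30.3% to 47.7% and TATCGATA from 7.51% to 12.5%. Counting only summits within reach of no other gene, a choice made after seeing the data, gave 4 of the 10 genes in place of 10. It gave 7 of the 28 other genes in place of 21. Over all protein-coding genes the same choice gave 2432 (17.4%) in place of 5941 (42.6%), so a fall of this kind is general. Of 57 alternative values of the promoter percentiles, 2 moved by 1 SD or more, both at 250 bp (Chro 98.9, Ibf1 75.1), where a weaker summit replaces the strongest; leaving out a replicate moved them by at most 3.26. No paired analysis was possible because there is 1 group and no comparison between groups.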

Other observations

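A sequence was looked for at the strongest peaks after the data were seen. Of 4526 sequences of 7 bases ranked by their excess over flanks 500 bp away, CACACTG came first. It lay within 50 bp of 36 of the 99 strongest IDR summits outside the 10 genes (36.4%), against 1.01% of flanks and 5.52% of promoter summits. It was within 50 bp of 0 of the 19 summits of the 10 genes. The window was then widened to 100 bp, because a copy near the main Chro summit was seen to lie just past the limit, with its centre at 50 bp. Within 100 bp it was at 51.5% of the 99 summits, 10.5% of promoter summits and 1 of the 19, that of Chro. The single match therefore rests on a window chosen to include it. The copy is shown in capitals with its flanks (chr3L:22879267-22879295, plus strand). It lies upstream of Chro but downstream of the Ssl1 start that is 15 bp from the summit, so it cannot be given to Chro alone.
Chro upstream copy: ccctgtgtgtaCACACTGttacattagcc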
